A study of Mus musculus with 2 samples.

Results

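Fn1 encodes fibronectin, and the accessibility of its chromatin was examined in primary murine cardiac fibroblasts. Of 63316 peaks in the deposited ATAC-seq table, 4 carried the symbol Fn1 (ENSMUSG00000026193). The set was defined by the annotation of the table, and the gene itself was selected on earlier results of these same densities, so its values are a description and no test was made on them. Intergenic peaks that the table places nearest to the Fn1 transcription start site (TSS) were also to be included, but there were 0 of them. Both libraries came from heart fibroblasts that received TGF-β at 5 ng/ml over 24 h. Before that the cells had taken up either a scrambled control siRNA (SCR, labelled NC) or one against Piezo2 (siPiezo2), which encodes a mechanosensitive ion channel. There was 1 library per condition. Differences therefore have no replicate check, intervals cover counting error only unless stated otherwise, and fewer cells with an open site cannot be told apart from a less open site in each cell. The methods put the mouse lines of the study on a C57BL/6J background, and the age of the animals behind these cultures was not given in the sources used here.

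Fibronectin is a large secreted glycoprotein. Cells bind it through integrins, mainly α5β1, stretch it with their actin cytoskeleton and so assemble it into fibrils. The fibrils form an early scaffold onto which collagens, fibrillin and latent TGF-β binding proteins are laid. TGF-β induces fibronectin in fibroblasts, and a splice form with the extra domain A is a known feature of myofibroblasts. In ATAC-seq, the Tn5 transposase cuts open DNA, and the number of reads over a site follows how accessible it is.

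The labels were first checked against marker genes. Of 10 fibroblast genes, 8 had a peak, and all 8 had one at a promoter or 5′ UTR; Lum and Thy1 had none. Of 8 cardiomyocyte genes 3 had a peak and 1 a promoter or 5′ UTR peak, of 7 endothelial genes 6 and 1, and of 6 leukocyte genes 3 and 0. Of 6 smooth muscle and pericyte genes 5 had a peak and 3 a promoter or 5′ UTR peak, and of 5 epicardial genes 5 and 3. Summed density went from 1190 in SCR to 1081 in siPiezo2 for the fibroblast genes and from 816 to 439 for 6 myofibroblast genes. It went from 494 to 532 for endothelial, from 183 to 151 for leukocyte, from 539 to 453 for smooth muscle and pericyte, from 146 to 152 for cardiomyocyte and from 244 to 240 for epicardial genes. Whether these shifts have a part in the Fn1 values was not tested. The targeted gene, Piezo2, went from 334 to 242 in summed density over 14 peaks, a log2 ratio of -0.46, which is accessibility and no measure of the knockdown, since an siRNA acts on the transcript.

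The 4 peaks sat at 3 places. Positions are those of the table, whose gene positions and scaffold names are of the GRCm39 assembly. The table places Fn1 on the minus strand of chromosome 1, from 71624679 to 71692334, a length of 67656 bp. A promoter peak (71691862 to 71692806, 945 bp) was centred on the TSS itself. An intron peak (71682440 to 71682888, 449 bp) lay 9.67 kb into the gene, in intron 6 of 44 of transcript ENSMUST00000188894. A pair of peaks lay past the end of the gene, in the class the table calls downstream (2-3kb). The nearer downstream peak (71622502 to 71622824, 323 bp) began 1.86 kb beyond the gene and the farther one (71621717 to 71621944, 228 bp) 2.73 kb beyond it. They were 69.7 kb and 70.5 kb from the TSS. The gene Atic, which runs toward Fn1 on the other strand, ends at 71618790, leaving 5.89 kb between the genes, so the downstream pair lies between the ends of both and its link to Fn1 is one of position. No other peak was assigned to the gene body.

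All 4 peaks were lower in the siPiezo2 library, least at the promoter and most at the end of the gene. Values are the authors' normalized read densities, in reads per kb of a 2000 bp window around the peak's centre. Log2 ratios are log2((siPiezo2 + 1)/(SCR + 1)) of these densities, with 95% exact binomial (Clopper-Pearson) intervals from the whole reads behind them.

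The promoter peak had a density of 86.1 in SCR (230 reads) and 71.7 in siPiezo2 (106 reads). Its log2 ratio was -0.26 (95% interval -0.61 to 0.08), an interval that includes 0. It was called in both libraries. The intron peak had 191 reads and a density of 73.7 in SCR against 65 reads and 43.0 in siPiezo2, which gave a log2 ratio of -0.76 (interval -1.19 to -0.35). The siPiezo2 library thus kept 58.3% of the SCR density at the intron peak and 83.3% at the promoter.

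The nearer downstream peak went from 53.3 (130 reads) to 15.4 (24 reads), a log2 ratio of -1.73 (interval -2.43 to -1.10). The farther one went from 55.1 (135 reads) to 16.7 (26 reads), a log2 ratio of -1.67 (interval -2.33 to -1.05). The siPiezo2 library kept 28.8% of the SCR density at the nearer and 30.2% at the farther peak. The pair is close to a single measurement, because their centres are 833 bp apart and their windows share 58.4% of their length. The intron peak and both downstream peaks were called in the SCR library only, so they are in the table through the library in which they are high. Of 40553 peaks called in SCR only, 73.1% had a log2 ratio below 0 (median -0.23), against 49.7% of 21398 peaks called in both (median 0.00248).

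**Figure D1:**
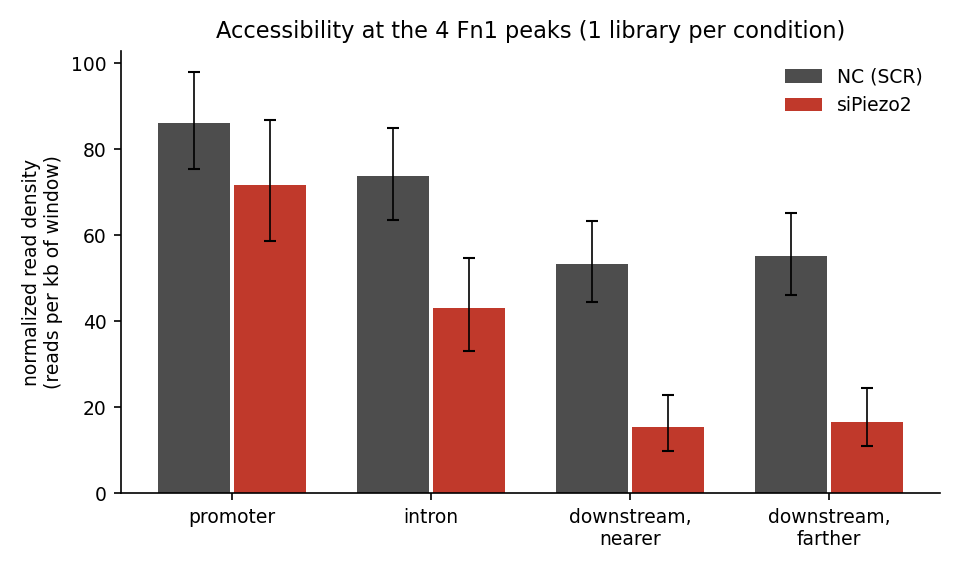
Normalized read density (reads per kb of window) at the promoter, intron and downstream peaks of Fn1 in the SCR library (labelled NC, grey) and the siPiezo2 library (red). Bars are single libraries and error bars are 95% exact Poisson intervals from the reads; they overlap at the promoter (86.1 and 71.7) and do not at the intron peak (73.7 and 43.0) or at the nearer (53.3 and 15.4) and farther (55.1 and 16.7) downstream peaks.

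Of the 4 peaks, 3 were below 0.66 of SCR and 0 above 1.5, the fold limits that the methods give for RNA-seq. Over all 63316 peaks, 13.5% were below 0.66 and 3.21% above 1.5. With limits of 0.5 and 2, 2 Fn1 peaks were below and 0 above, against 2.76% and 0.504% of all peaks. Nothing is read from these counts, since the gene was selected on the same contrast. The intron peak, at 58.3% of SCR, was the nearest inside the limit and the promoter peak, at 83.3%, the nearest outside it. The libraries differed by more than counting error in general. At 8506 peaks called in both, with reads in the range of the Fn1 peaks, the median squared log ratio was 2.57 times what counting error gives, and real differences between the conditions are part of that. With this factor in the variance, a step added once the values were known, the intervals ran between -0.79 and 0.27 at the promoter, -1.41 and -0.11 at the intron peak, -2.74 and -0.73 at the nearer downstream peak and -2.64 and -0.70 at the farther one. Intervals given without this factor, among them those of other peaks and of genes, were left at counting error, also where they exclude 0.

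The peaks were also set against each other in the whole reads behind the densities, where a factor common to all peaks cancels. A difference between libraries that changes with density does not cancel, and the authors' densities have such a part taken out (fit slope 0.174). In those densities the log2 ratio of the nearer downstream peak less that of the promoter was -1.47. These values are descriptions of a gene selected on the same densities, and they compare a promoter called in both libraries with peaks called in SCR only. The reads at the nearer downstream peak, relative to those at the promoter, were lower in siPiezo2 than in SCR by a log2 difference of -1.32 (95% conditional exact interval for counting error -2.10 to -0.58, and -2.46 to -0.18 with the variance factor above). Relative to the intron peak the difference was -0.88 (interval -1.70 to -0.10), and with the variance factor the interval, -2.08 to 0.32, included 0. Between the intron peak and the promoter it was -0.44 (interval -0.99 to 0.11), with an interval that includes 0. Put as shares of the reads in the 3 windows that do not overlap, the promoter held 41.7% in SCR (interval 37.6 to 46.0) and 54.4% in siPiezo2 (47.1 to 61.5). The nearer downstream peak held 23.6% (20.1 to 27.4) and 12.3% (8.05 to 17.8). The share of the intron peak was 34.7% and 33.3%, with overlapping intervals. In siPiezo2, then, the reads of the Fn1 peaks lay more at the promoter and less past the end of the gene.

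Each peak was next set beside peaks of its own class, as a description of where it stood. The Fn1 promoter peak was a strong and wide one: 94.7% of 9251 promoter peaks (within 1 kb of a TSS) had a lower mean density and 99.3% were narrower. Its log2 ratio ranked 2233 from the lowest in that class, whose median was -0.03 and of which 5.86% were below 0.66. The intron peak was denser than 96.6% of 26569 intron peaks and ranked 2134 from the lowest, in a class with a median of -0.17 and 14.8% below 0.66. The downstream peaks were of more usual strength, denser than 78.2% (nearer) and 79.9% (farther) of 973 downstream peaks. Their log2 ratios ranked 5 and 8 from the lowest there, against a class median of -0.14 with 16.2% below 0.66. Among all peaks of the table they ranked 49 and 73.

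**Figure D2:**
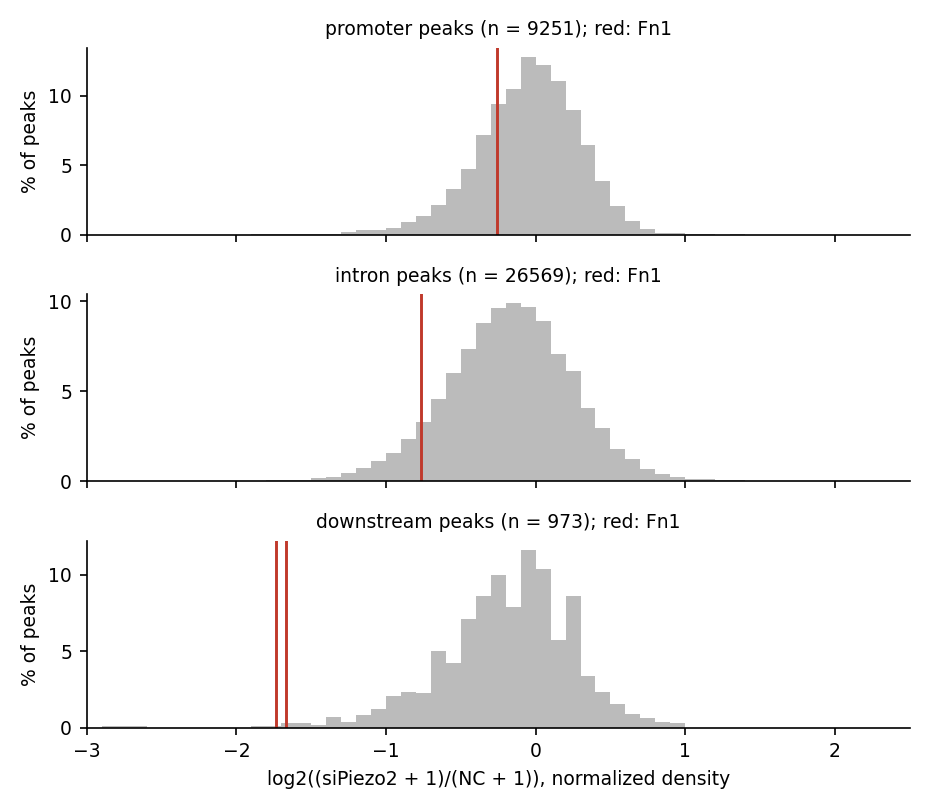
Distribution of the log2 ratio of siPiezo2 to SCR (x axis, pseudocount 1) over all promoter (9251), intron (26569) and downstream (973) peaks, as the percent of peaks in bins 0.1 wide, with the Fn1 peaks as red lines. The promoter line (-0.26) sits inside the bulk of its class, the intron line (-0.76) on its lower shoulder and both downstream lines (-1.73 and -1.67) in its lower tail.

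The gap between promoter and gene end was then set beside that of other genes. There were 322 genes with both a promoter-class and a downstream-class peak. The difference between the lowest downstream log2 ratio and the median promoter log2 ratio of a gene had a median of -0.14 (quartiles -0.53 and 0.17), and for Fn1 it was -1.47, rank 3 from the lowest. For Fn1 this takes the lower of a pair of overlapping windows, at peaks called in SCR only, and of the 682 downstream peaks called in SCR only 21.4% were below 0.66, against 4.43% of the 271 called in both. In 46 of these genes (14.3%) the promoter was within the fold limits while a downstream peak was below 0.66, as at Fn1. For the intron the gap was ordinary. Among 3500 genes with a promoter-class and an intron-class peak the difference had a median of -0.35 (quartiles -0.71 and -0.0026), and Fn1, at -0.50, ranked 1339.

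Summed over its 4 peaks, the density at Fn1 was 268 (SCR) and 147 (siPiezo2). The log2 ratio was -0.87 (interval -1.09 to -0.65, from 686 and 221 reads), with the downstream reads partly counted in both windows of the pair. With only the separate windows it was -0.71. It rested on peaks called in SCR alone: over the 1 peak called in both libraries, the promoter, it was -0.26. Of 16934 genes with a peak, 6.21% were below 0.66 by summed density and 1.54% above 1.5, with a median of -0.09, and Fn1 ranked 321 from the lowest. Its mean density was above that of 93.3% of these genes. Among 924 genes that also had 4 peaks, Fn1 ranked 6 from the lowest and 51 from the highest in density. That group had a median log2 ratio of -0.14 and 4.33% of it was below 0.66. For scale, Acta2, which encodes α-smooth muscle actin, had -1.91 over 2 peaks.

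The genes whose summed log2 ratio was nearest to that of Fn1 were found among 3078 genes with at least 2 peaks and a summed mean density within 2-fold. This likeness is over 2 libraries only. Actb, the gene of cytoplasmic β-actin, went from 294 to 160 over 3 peaks (log2 ratio -0.87). Bvht, a long noncoding RNA gene, went from 478 to 263 over 8 peaks (-0.86). Pard6g, a cell polarity regulator, went from 171 to 91.5 (-0.89) and the noncoding gene Sardhos from 195 to 105 (-0.89), each over 3 peaks. Ccn1, which encodes a matricellular protein, went from 308 to 165 over 3 peaks (-0.90). All 5 differed from Fn1 by at most 0.03 in size, less than the width of any of their intervals.

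Peaks around Fn1 had log2 ratios on both sides of 0. Upstream of the promoter the table lists 8 intergenic peaks that it places nearest to ENSMUSG00000073652, a gene on the plus strand in the antisense class of the reference annotation. The TSS of that gene, at 71692498, is 164 bp from the TSS of Fn1, so that the reads of the promoter window cannot be divided between the genes. These 8 peaks are no members, and were looked at after their values were seen. Their summed density was 243 and 210 in the SCR and siPiezo2 libraries, and the log2 ratio -0.21 (interval -0.40 to -0.01). Of the 8, 3 were below 0.66 and 3 above 1.5, where 13.5% and 3.21% of all peaks were.

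The nearest of them, 30.8 kb upstream of the Fn1 TSS (71722965 to 71723293), went from 19.2 (46 reads) to 39.8 (64 reads), a log2 ratio of 1.01 (interval 0.45 to 1.59). The next, at 38.9 kb, had 0.64 (interval -0.08 to 1.37), and one at 99.4 kb had 0.81 (0.24 to 1.39). The fourth peak within 100 kb, at 58.1 kb, had -0.58 (interval -1.45 to 0.25). These 4 were weak in SCR, with at most 20.4 reads per kb. Past 100 kb lay 4 stronger peaks between 102 and 114 kb upstream, all of them lower in siPiezo2. The lowest had a log2 ratio of -0.92 (44.4 to 22.9) and the highest -0.49 (33.1 to 23.3). Summed, the 4 nearer peaks had a log2 ratio of 0.62 (interval 0.31 to 0.94) and the 4 farther ones -0.77 (interval -1.05 to -0.51), of which 2 have overlapping windows. The division at 100 kb was made after seeing these values.

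On the other side, the next peak after the downstream pair lay between Atic and Fn1 (71618898 to 71619111), 73.3 kb from the Fn1 TSS in the direction of transcription. It went from 40.0 (98 reads) to 24.8 (39 reads), a log2 ratio of -0.67 (interval -1.24 to -0.12), and its window does not overlap those of the Fn1 peaks. The 5′ UTR peak of Atic, which encodes an enzyme of purine synthesis, had -0.48 (interval -0.98 to 0.01).

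**Figure D3:**
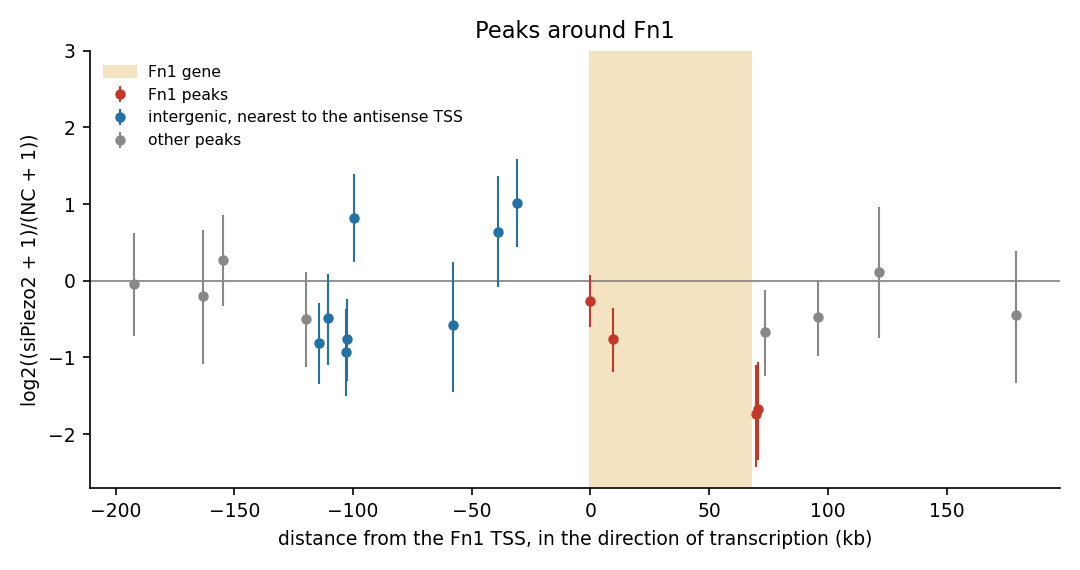
Log2 ratio of siPiezo2 to SCR (y axis, pseudocount 1) for every peak within 200 kb of the Fn1 TSS, against distance from the TSS in the direction of transcription (kb), with 95% exact binomial intervals and the gene shaded. Fn1 peaks (red) decline from -0.26 at the TSS to -1.67 and -1.73 past the end of the gene, while the upstream intergenic peaks (blue) lie between -0.92 and 1.01.

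In all, 9 genes with a peak have their start within 500 kb of either end of Fn1. Their median log2 ratio was 0.01, and 4 were below 0. Under the other scalings, pseudocount and filters, reads without scaling apart, that median lay between -0.04 and 0.19. The only gene below 0.66 was the noncoding 4933417E11Rik, at -0.88 (interval -1.22 to -0.55, 4 peaks). The only gene above 1.5 was Abca12, a lipid transporter, at 0.64 (interval -0.10 to 1.38, from 31 and 36 reads). Bard1, the partner of BRCA1, had 0.15 (interval -0.36 to 0.66). The other genes were Atic, described above, and Gm8883 (-0.25), 4930556G22Rik (-0.24), Gm28818 (0.01), Gm4319 (0.08) and Gm57173 (0.38), all with intervals that include 0. The interval of Fn1 overlapped those of Atic, Gm8883, 4933417E11Rik and 4930556G22Rik and lay below those of Bard1, Abca12, Gm28818, Gm57173 and, narrowly, Gm4319. With only the separate windows the Fn1 interval was -0.95 to -0.47, and it then overlapped that of Gm4319 (-0.64 to 0.79) as well.

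Genes that act with fibronectin were described from lists by their summed densities. The lists were chosen with earlier results of these data known, so their medians and order are descriptions. Over all genes 62.6% were below 0, 6.21% were below 0.66 and 1.54% above 1.5, and each count below stands beside these shares. The counts are given for the authors' densities only. Other scalings move the level, so that genes near a limit, such as Itga4 and Tnc below, can cross it. Integrins that bind fibronectin come first. All 12 had a peak, their median log2 ratio was -0.17, 10 were below 0, 2 (16.7%) were below 0.66 and 0 above 1.5. The median was -0.03 with median-of-ratios or trimmed mean scaling, which moved the median of all genes from -0.09 to 0.04 and 0.05. Itga5 and Itgb1, which encode the main fibronectin receptor α5β1, had -0.13 (104 to 95.5, interval -0.43 to 0.17) and -0.22 (159 to 136, interval -0.47 to 0.02). Itgav, the α chain of the αv integrins, had -0.33 (interval -0.54 to -0.12). The 2 genes past the limit were Itga8 (78.0 to 45.2, log2 ratio -0.77, interval -1.18 to -0.37) and Itga4 (44.7 to 28.8, -0.62, interval -1.15 to -0.10), which encode the α chains of integrins α8β1 and α4β1. Itga2b, the platelet integrin chain, was the highest at 0.37.

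Of 6 co-receptor genes, 0 passed either limit and the median was -0.10, close to that of all genes. It turned to 0.03 with median-of-ratios scaling, 0.04 with trimmed mean scaling and 0.01 with recovered reads at the same total. Sdc4, whose proteoglycan binds the heparin-binding region of fibronectin, had 0.08 (interval -0.10 to 0.26). Of 19 genes for the adhesions at which fibrils are assembled (among them talins, tensins, kindlin-2, FAK and paxillin), 0 passed either limit as well. Their median was -0.14, and -0.0035 with median-of-ratios and -0.00038 with trimmed mean scaling, with the lowest at Actn4 (-0.54), which encodes an actin crosslinker, and the highest at Zyx (0.25).

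Matrix genes whose products bind or build on fibronectin had the lowest median of the lists, -0.41. Of 30 genes 29 had a peak (Vtn had none), 22 were below 0, 5 (17.2%) were below 0.66 and 0 above 1.5. With median-of-ratios or trimmed mean scaling the median was -0.27. The 5 were Thbs1 (thrombospondin-1, 446 to 184, log2 ratio -1.28), Lox (lysyl oxidase, 189 to 90.2, -1.06), Col5a2 (a chain of collagen V, 212 to 132, -0.68), Ccn2 (connective tissue growth factor, 403 to 256, -0.65) and Tnc (tenascin-C, 107 to 70.0, -0.60). Only Thbs1 and Lox were lower than Fn1. Col1a1, a chain of collagen I, had -0.44 (interval -0.73 to -0.15) and Fbn1, fibrillin-1, -0.41 over 31 peaks (interval -0.50 to -0.32). Ltbp1, which tethers latent TGF-β to the matrix, had 0.06 (interval -0.07 to 0.20). The highest was Tgm2, which encodes transglutaminase 2, at 0.35 (interval 0.02 to 0.69), the only gene of the list whose interval lay above 0. Less the median of all genes, the list stood at -0.32, and between -0.34 and -0.29 under the alternatives with peaks of either call.

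For the TGF-β ligands, receptors, SMADs and the SMAD repressors Ski and Skil, 0 of 12 genes passed either limit and the median was -0.15, or -0.02 with median-of-ratios and -0.01 with trimmed mean scaling, with Smad4 lowest (-0.47) and Tgfbr1 highest (0.29). Itga2b, Actn4, Zyx, Tgm2, Smad4 and Tgfbr1 are named as the ends of their lists, which was done after their values were seen.

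**Figure D4:**
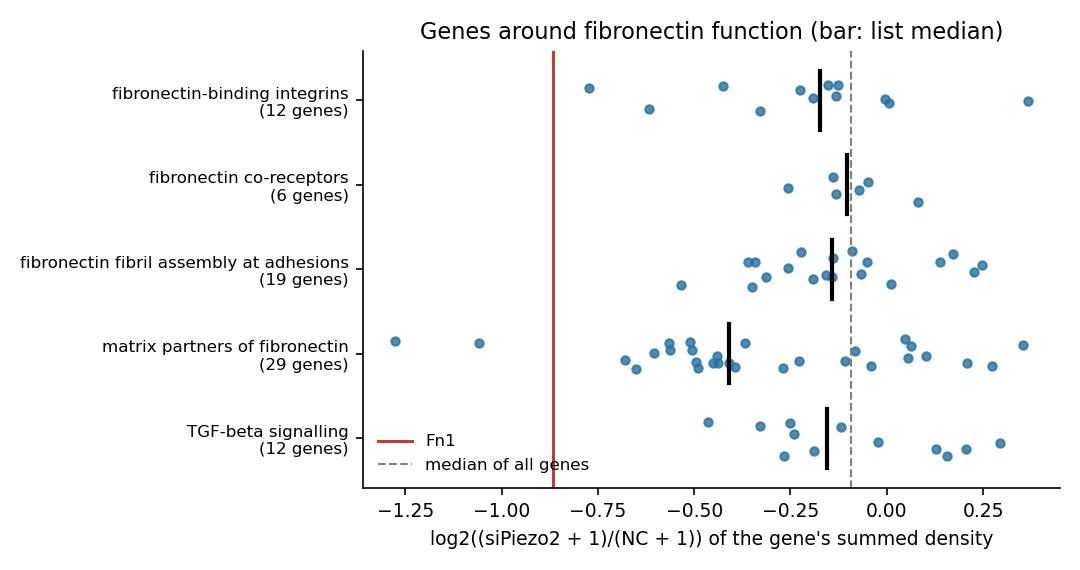
Log2 ratio of summed density (x axis, siPiezo2 to SCR, pseudocount 1) for each gene of the 5 lists, with the list median as a black bar, the median of all genes (-0.09) dashed and Fn1 (-0.87) in red. Matrix partners have the lowest median (-0.41) and hold the only genes left of Fn1, Thbs1 (-1.28) and Lox (-1.06). The lists were chosen with earlier results of these data known.

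The scaling between libraries moved the level of the Fn1 values and not their order. The windows of all peaks together held 4615335 reads from SCR against 2754046 from siPiezo2, 0.597 times as many. Scaling by median-of-ratios put the promoter at -0.12, the intron peak at -0.63 and the summed downstream pair at -1.59, with the median of all genes at 0.04. Recovered reads at the same total gave -0.37, -0.80 and -1.64. In that setting the interval of the promoter, -0.71 to -0.03, no longer included 0. The reads without scaling, likewise tried only after the values were known, gave -1.10, -1.53 and -2.36, with all genes at -0.70.

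**Figure D5:**
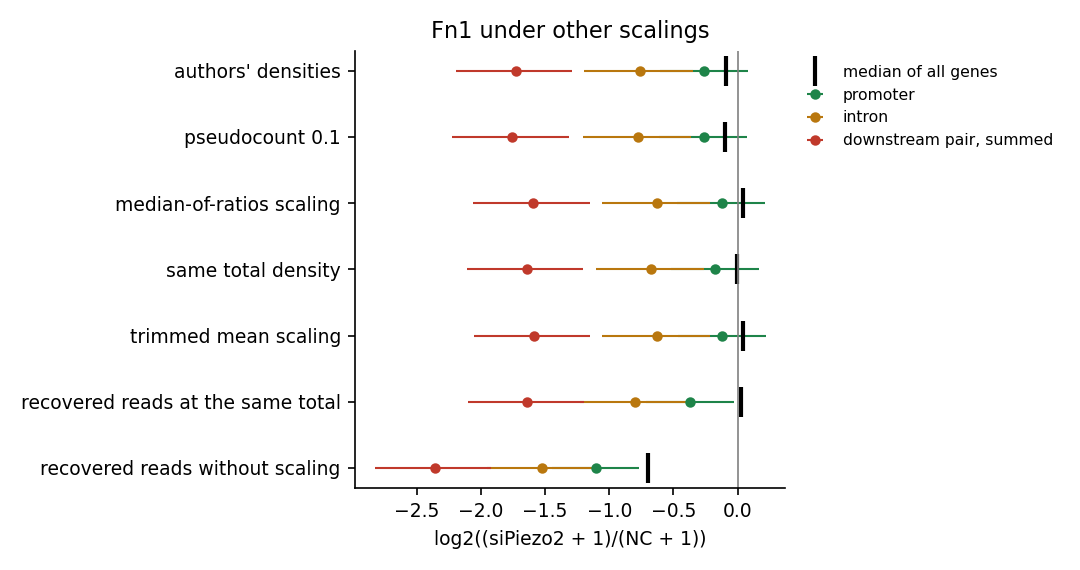
Log2 ratio of siPiezo2 to SCR (x axis, pseudocount 1 unless named) at the Fn1 promoter, intron and summed downstream peaks under each scaling (rows), with 95% exact binomial intervals; the black mark is the median of all genes. In every row drawn the promoter is highest and the downstream pair lowest, from -0.26 and -1.73 in the authors' densities to -1.10 and -2.36 in reads without scaling.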

How the data were processed

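ATAC-seq libraries of primary murine cardiac fibroblasts (1 SCR, labelled NC, and 1 siPiezo2) were assigned to conditions by their labels. The description of the series names a Tet3 knockout instead, and the methods name minced tissue; the labels were followed. Per the methods, reads were aligned with bwa (BWA 0.7.12 in the submitters' processing notes), deduplicated with Picard and peaks called with MACS2. The notes name mm10, but the table's coordinates are those of GRCm39, so no sequence was read. The authors deposited the signal as normalized read density per peak, and the values have the form left by regressing the log2 ratio between libraries on the mean log2 density. The tool is not given in the sources used here. The table's own fold and p-value columns were not used.

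From the densities, intercept and slope of the fit were solved so that reads per window of 2000 bp came out whole (within 0.05) for 100% of peaks, with 1 read added per window. A median peak had 58 and 36 reads, which sets the precision of single peaks. Exact intervals came from scipy 1.17.1. Densities were summed per gene symbol, and log2 ratios used a pseudocount of 1. Windows were called separate from the lowest position up. Trimmed mean scaling left out 30% of log2 ratios and 5% of mean densities at each end. The procedure was tested on simulated data made with the same window, added read and form of fit. The simulation therefore did not check those assumptions, and its reads held counting error only. Members, lists and rules for naming genes were chosen with earlier results of these data known. Named were all Fn1 peaks, genes starting within 500 kb, list genes past the fold limits with 7 others set by the rule, and the 5 genes nearest in log2 ratio. Genes at the ends of a list's range were added after their values were seen. Python 3.11.15, numpy 2.4.6, pandas 2.3.3 and matplotlib 3.10.9 were used.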

Additional observations from a re-analysis of the deposited data

How the results depend on the processing

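There was 1 library per condition, so no paired analysis was possible because each condition had a single library, and none could be left out. Of 114 recomputed values, 102 stayed within the interval of the reported value (or, for counts, within 1.5 times), 12 moved and 0 changed the sign of a value whose interval excluded 0. For a list's median that interval came from the order of its genes. Not all of the 102 were free to move. Keeping only peaks within 10 kb of the gene, or above the first quartile of density, removed no Fn1 peak. The Fn1 values there repeat the main ones, as does the promoter under every filter of peaks. With only the peaks called in both libraries, the summed Fn1 log2 ratio was -0.26 in place of -0.87 and 0 peaks were below 0.66 in place of 3, since 1 peak, the promoter, remained; the intron and downstream values could not be had. The other 10 moved with the recovered reads without scaling, where the unequal read numbers stay in, an alternative added after seeing the values: summed Fn1 -1.63, promoter -1.10, intron -1.53, downstream pair -2.36, neighbouring genes -0.54, integrins -0.86, co-receptors -0.73, fibril assembly -0.83, matrix partners -1.04 and TGF-β signalling -0.84. With fold limits of 0.5 and 2, 2 Fn1 peaks were lower and 0 higher, against 2.76% and 0.504% of all peaks. With the other scalings, pseudocount and filters the summed Fn1 log2 ratio lay between -0.89 and -0.71, the intron peak between -0.80 and -0.62 and the downstream pair between -1.76 and -1.59. The depth, 24 to 230 reads per Fn1 window and library, limits all of these.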
